A study of Bos taurus with 6 samples.

Results

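The miR-378 family was examined in the liver of Angus cattle as 4 mature miRNAs, bta-miR-378, bta-miR-378b, bta-miR-378c and bta-miR-378d, taken by name from the 1030 mature miRNAs listed for each small RNA library. Of these 1030, 456 had a count above 2 in at least 2 libraries and were tested, and all 4 family members were among them. Small RNA was sequenced from the liver of 3 grass-fed Wye Angus steers, killed at 21 months of age, and of 3 grain-fed Wye Angus steers, killed at 14 months, with 1 library per animal. The grass-fed diet was mainly alfalfa, hay or pasture, and the grain-fed diet mainly corn silage, shelled corn, soybean and minerals. Both groups came from 1 closed herd and were sampled at market weight, so diet and age cannot be told apart in any value given here. The grass-fed libraries held 3824592 to 6133960 miRNA counts and the grain-fed libraries 464875 to 892929. Depth below refers to these miRNA counts. The paper reports nearly equal raw read totals for both groups. Under grain it reports somewhat fewer clean reads and a lower share of clean reads mapped. The lower miRNA counts of the grain-fed libraries run along diet and age, and their source was not tested.

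miR-378 is processed from a hairpin in an intron of PPARGC1B, a transcriptional coactivator that drives mitochondrial and fatty acid oxidation genes, and it is one of the miRNAs best known for a link to energy metabolism. Loss of the locus in mice is known to raise oxidative metabolism and to protect against diet-induced obesity, and carnitine acetyltransferase and MED13 are among its described targets. The miRNA is found in liver, adipose tissue and, at high levels, in striated muscle. Its paralogs carry the same name because their mature sequences are closely alike, and so small RNA reads of one member may also fit another.

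The files list 5 precursors for the 4 members, and all 5 were matched by name to the RefSeq gene table of ARS-UCD2.0, a newer assembly than the ARS-UCD1.2 to which the authors mapped their reads. They lie on 5 different chromosomes. bta-miR-378 has 2 precursors, of which bta-mir-378-1 lies within PPARGC1B and bta-mir-378-2 within CALCR, the calcitonin receptor gene. bta-mir-378c lies within ZNF521 and bta-mir-378d within MSI2, which encode a zinc finger protein and an RNA-binding protein. bta-mir-378b overlaps no protein-coding or lncRNA gene, and NECTIN1, a cell adhesion gene, is the nearest protein-coding gene. No other mature product, such as the opposite arm of a hairpin, is listed under any of the 5 precursors. The PPARGC1B mRNA itself was not analysed here.

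The comparison of grass-fed with grain-fed liver asks whether the feeding regimen is accompanied by a different level of these miRNAs. The CPM values of the diets overlapped for every member of the family, and no member was called between them after TMM scaling. The quasi-likelihood test of the edgeR package, adjusted by Benjamini-Hochberg over all 456 miRNAs, put 0 of 4 members below FDR 0.1, against 19.1% of all tested miRNAs, and 0 of 4 had an unadjusted p below 0.05, against 25.2%. DESeq2 likewise called 0 of 4, against 26.0% of the 350 miRNAs to which it gave an adjusted p, with 0 of 4 at an unadjusted p below 0.05, against 23.0%. CPM ranges were separate between the diets for 0 of 4 members, as against 32.9% of all tested miRNAs. After TMM scaling the median log2 fold change, grass-fed over grain-fed, was 0.35 over the 4 members and 0.13 over all 456.

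bta-miR-378 made up most of the family. Values are given in the order of replicates 1, 2 and 3 of a diet. The grass-fed steers gave 5496, 3505 and 3042 counts and the grain-fed steers 600, 553 and 452 counts. TMM scaling turned these into 1157, 826 and 798 CPM (counts per 1000000) under grass and 584, 783 and 802 CPM under grain. Grass-fed replicate 1 was the highest library and grain-fed replicate 1 the lowest, while the other 4 libraries lay between 783 and 826 CPM with both diets mixed. Grass-fed liver averaged 927 ± 200 CPM (SD, n = 3) and grain-fed liver averaged 723 ± 120 CPM (SD, n = 3). The fold of 1.29 had a 95% interval from 0.906 to 1.82, which is 0.36 on the log2 scale with a standard error of 0.23 (edgeR FDR = 0.352). The log2 value dropped to 0.10 when grass-fed replicate 1 was left out and to 0.18 when grain-fed replicate 1 was.

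By mean CPM over both groups, bta-miR-378 was 54th of the 456 tested miRNAs, and its rank lay between 46 and 65 in the single libraries. The next miRNA above it was bta-miR-127, at 868 ± 59.1 CPM under grass and 904 ± 57.5 CPM under grain (SD, n = 3 each). The next below was bta-miR-30f, at 1071 ± 103 CPM under grass and 567 ± 157 CPM under grain (SD, n = 3 each). bta-miR-30f was called between the diets at 0.92 on the log2 scale (edgeR FDR = 0.0192). Its difference was larger than the 0.36 of bta-miR-378, so its call does not show that a difference as small could pass the test. The mean levels of these 3 neighbours, 886, 825 and 819 CPM over both groups, differed by less than the SD of bta-miR-378 within either group.

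bta-miR-378c was the second most abundant member. Its levels were 197, 213 and 145 CPM under grass and 136, 143 and 160 CPM under grain, from 90 to 936 counts a library. Grass-fed replicates 1 and 2 were the highest, and grass-fed replicate 3 lay among the grain-fed libraries. The means of 185 ± 35.6 CPM under grass and 146 ± 12.0 CPM under grain (SD, n = 3 each) differed by 0.34 on the log2 scale, with a 95% interval from -0.17 to 0.86 (edgeR FDR = 0.404). Its fold change was thus close to that of bta-miR-378, although the library with the highest level was not the same.

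bta-miR-378d was lower by about an order of magnitude than bta-miR-378c. Its 94, 77 and 59 counts under grass came to 19.8, 18.1 and 15.5 CPM, and its 28, 10 and 14 counts under grain came to 27.3, 14.2 and 24.8 CPM. The grass-fed libraries lay close together within the wider range of the grain-fed libraries, whose replicate 2 was the lowest of all 6. The mean was 17.8 ± 2.17 CPM under grass against 22.1 ± 6.98 CPM under grain (SD, n = 3 each), which is -0.33 on the log2 scale with a 95% interval from -1.04 to 0.39 (edgeR FDR = 0.599).

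bta-miR-378b was near the limit of detection. The grass-fed libraries held 23, 22 and 9 of its counts and the grain-fed libraries 3, 0 and 1. It was above 2 counts in 4 libraries, 3 of them grass-fed, so it passed the filter mostly through the group with more miRNA counts. The levels were 4.84, 5.18 and 2.36 CPM in grass-fed and 2.92, 0 and 1.77 CPM in grain-fed liver, and the ranges overlapped. Taking 3 counts per library as the floor, a count of 0 in grain-fed replicate 2 allows a level of up to 4.25 CPM, which is above the level of grass-fed replicate 3. Over the groups, 54 grass-fed and 4 grain-fed counts gave a ratio of 2.42 after scaling, with an exact 95% counting interval from 0.893 to 9.21. The fitted value was 1.25 on the log2 scale with a standard error of 0.78 (edgeR FDR = 0.335), and a difference was not detectable at this depth. Intervals and floors from counts cover counting error only. The interval of the ratio rests on counts summed over the 3 animals of each diet, so it leaves out differences between animals. The reads carry no molecular identifiers, so error from PCR is left out as well.

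**Figure D1:**
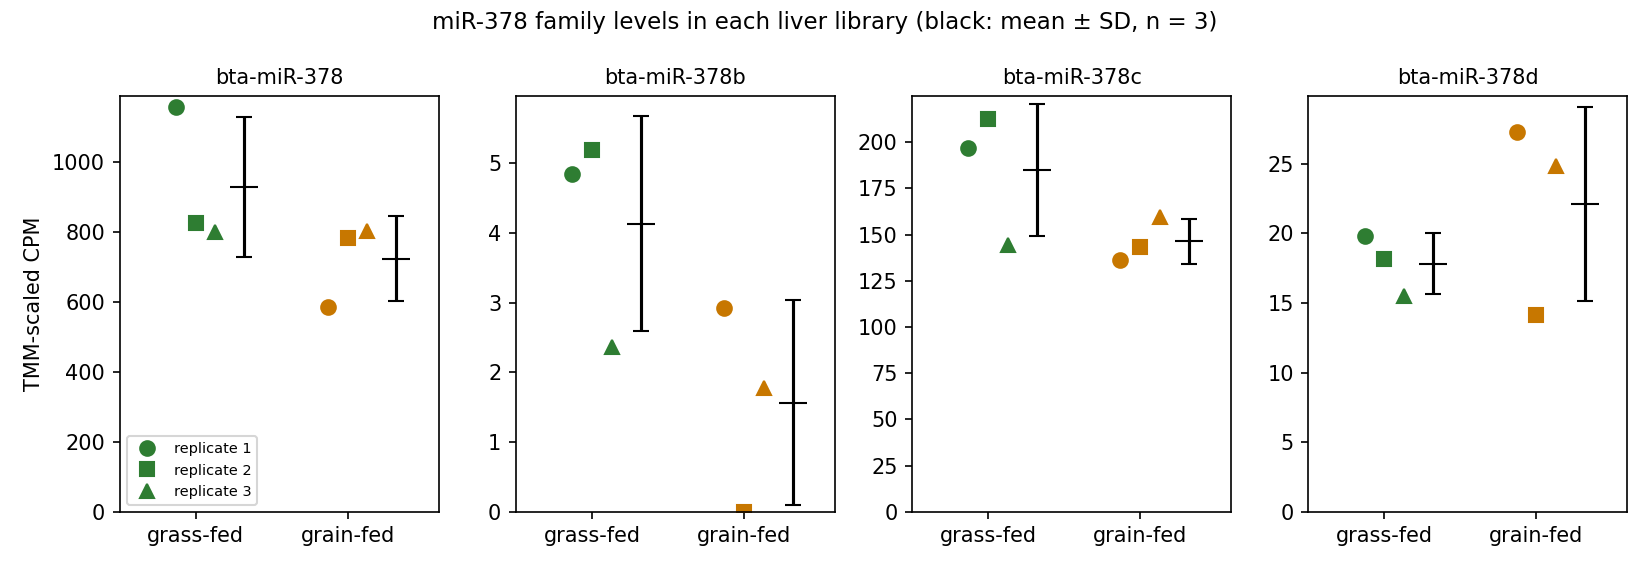
TMM-scaled CPM (linear axis from 0) of each miR-378 family member in the 3 grass-fed (green) and 3 grain-fed (orange) libraries, with replicates 1, 2 and 3 as circles, squares and triangles and the mean ± SD of each group in black. The ranges of the diets overlap in all 4 panels, and the level falls from 584 to 1157 CPM for bta-miR-378 to at most 5.18 CPM for bta-miR-378b.

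In each of the 6 libraries the levels fell in the order bta-miR-378, bta-miR-378c, bta-miR-378d and bta-miR-378b, and no range of one member over the libraries reached that of the next. All mature miRNAs are of similar length, so the order of CPM values is also an order per length, although ligation during library preparation can favour some sequences over others. In bulk liver, fewer cells of a type and less miRNA per cell cannot be told apart.

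The direction for bta-miR-378 and bta-miR-378c depended on how the libraries were scaled. A change of scaling multiplies all miRNAs of a library by the same factor. The position of each member relative to the other miRNAs is therefore nearly fixed in advance, and its steadiness is no test of the diet difference. Over all tested miRNAs, the median diet difference on the log2 scale was 0.13 with TMM, 0.059 with RLE, 0.31 with the upper quartile, -0.29 with the total count and -0.087 with the total count less bta-miR-122. bta-miR-378 moved with it, from 0.36 after TMM to 0.55 after upper-quartile scaling (edgeR FDR = 0.119) and -0.034 with total counts alone (edgeR FDR = 0.958). Set against the median of all tested miRNAs, bta-miR-378 was higher by 0.23 to 0.25 on the log2 scale under all 5 scalings tried. The same difference was 0.20 to 0.21 for bta-miR-378c and 1.10 to 1.11 for bta-miR-378b, and it was -0.46 for bta-miR-378d under each scaling. bta-miR-378c passed FDR 0.1 under upper-quartile scaling alone, at 0.52 (edgeR FDR = 0.0943), a scaling under which 27.2% of all tested miRNAs were called, and turned to -0.088 with total counts alone. bta-miR-378b remained above 0 and bta-miR-378d below 0 under all 5 scalings, and neither passed the test under any of them.

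**Figure D2:**
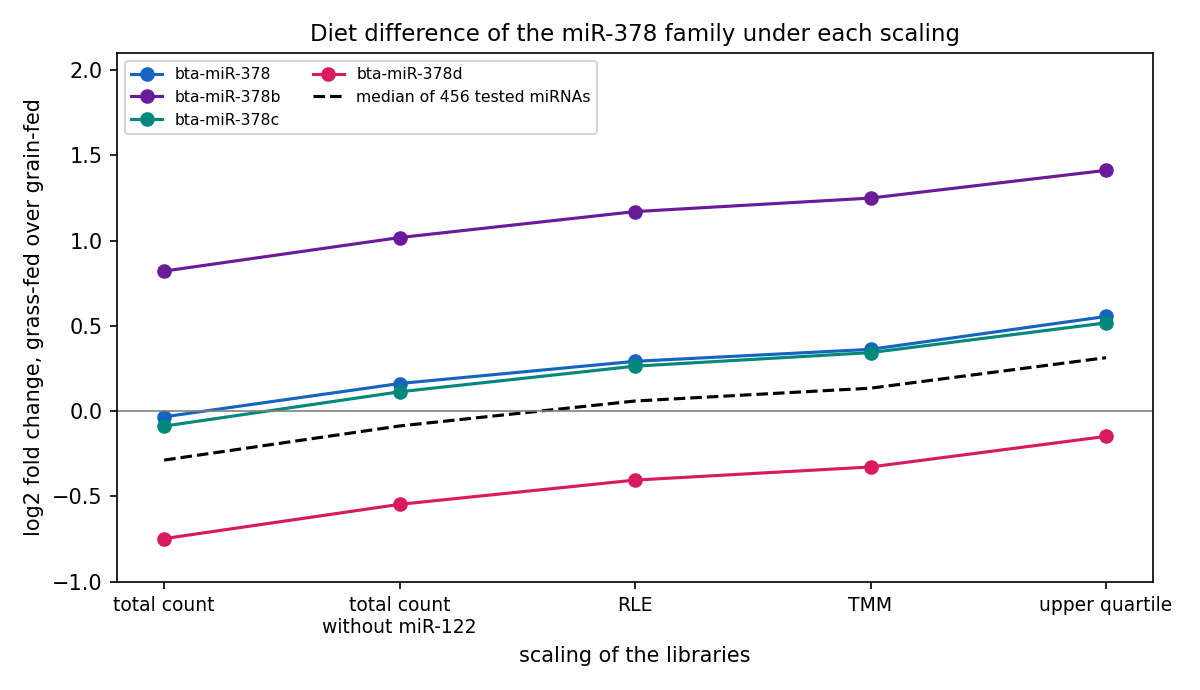
Log2 fold change, grass-fed over grain-fed, of the 4 members (coloured lines) and the median of all 456 tested miRNAs (dashed line) under 5 ways to scale the libraries. All lines rise together from total count to upper quartile, because each scaling applies the same factor to all miRNAs of a library. bta-miR-378 and bta-miR-378c lie just below 0 with total counts alone and above 0 in the other settings.

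A comparison between members within a library needs no scaling. bta-miR-378 took 83.9%, 77.8% and 83.1% of the counts of the 4 members under grass and 77.8%, 83.3% and 81.1% under grain. These shares treat each member's counts as separate reads, and the files do not show whether a read was counted under more than 1 member. No member had the same counts as any other miRNA in all 6 libraries, a check that would miss reads shared only in part.

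Per 100 counts of bta-miR-378 there were 17.0, 25.7 and 18.1 counts of bta-miR-378c under grass and 23.3, 18.3 and 19.9 under grain. As a share of the family, bta-miR-378c was highest in grass-fed replicate 2, at 20.0% (exact 95% binomial interval from 18.9% to 21.2%), and lowest in grass-fed replicate 1, at 14.3% (from 13.5% to 15.2%). These 2 intervals do not overlap, but they leave out the error of library preparation and PCR. The difference between the diets in the log2 ratio of bta-miR-378c to bta-miR-378, with 0.5 added to each count, was -0.04 (exact permutation p = 0.8, two-sided), smaller than the SD within either group, 0.32 in grass-fed and 0.18 in grain-fed liver.

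bta-miR-378d gave 1.71, 2.20 and 1.94 counts per 100 of bta-miR-378 under grass and 4.67, 1.81 and 3.10 under grain. Grain-fed replicates 1 and 3 were above every grass-fed library, and grain-fed replicate 2 lay within the grass-fed range. In grain-fed replicate 1 its share of the family was 3.63% (exact 95% binomial interval from 2.43% to 5.21%), and the highest grass-fed share was 1.71% (from 1.35% to 2.13%). The intervals of grain-fed replicates 2 (from 0.724% to 2.75%) and 3 (from 1.38% to 4.18%) overlapped that grass-fed interval. These intervals also leave out the error of library preparation and PCR. The log2 ratio to bta-miR-378 was lower under grass than under grain, with a difference of -0.65 (exact permutation p = 0.3, two-sided). Leaving out grain-fed replicate 2 gave -0.999, and leaving out grain-fed replicate 1 gave -0.34. For bta-miR-378b the difference in the log2 ratio was 0.77 (exact permutation p = 0.5, two-sided). It was 0.28 with 1 added to each count in place of 0.5. Leaving out the grain-fed library with 0 counts, replicate 2, brought it to 0.0043, and the value was 1.35 when replicate 1 of that diet was left out instead. Benjamini-Hochberg adjustment over the 3 ratios gave 0.75 for bta-miR-378b and bta-miR-378d and 0.8 for bta-miR-378c. With 3 libraries against 3, the smallest p this exact permutation test can give is 0.1.

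**Figure D3:**
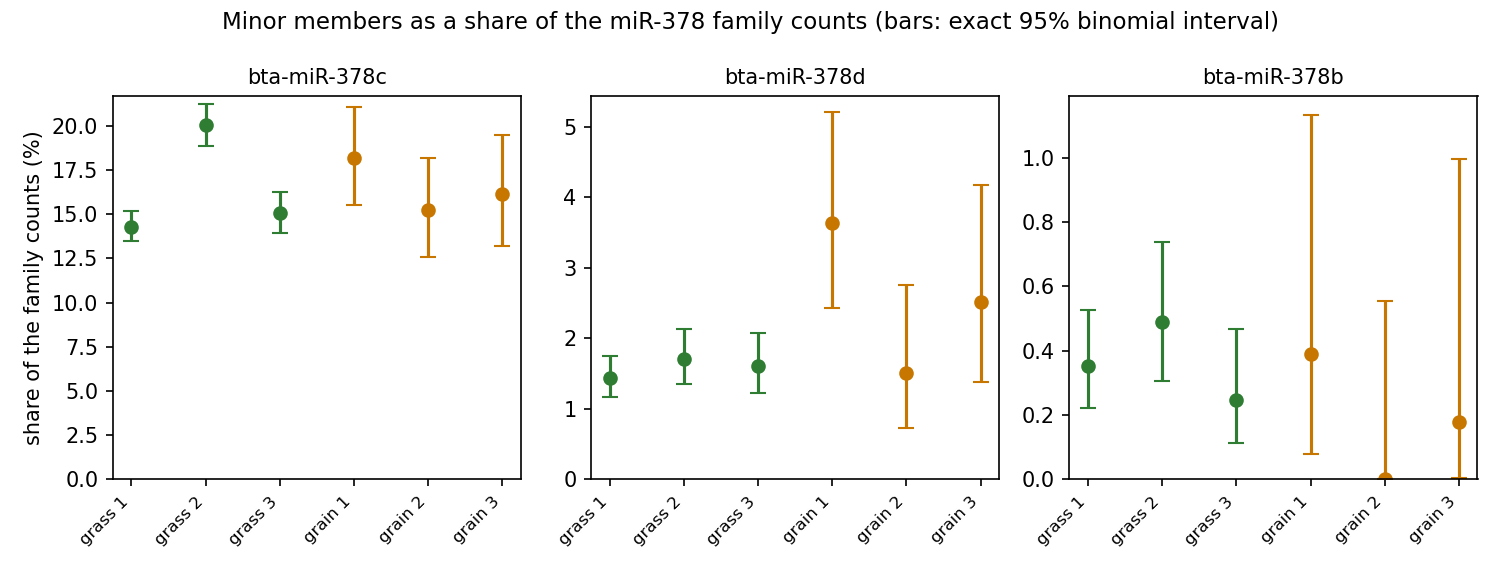
Share of the summed family counts (%, linear axis from 0) taken by bta-miR-378c, bta-miR-378d and bta-miR-378b in each library, grass-fed in green and grain-fed in orange, with exact 95% binomial intervals as bars. The intervals are wider in the grain-fed libraries, which held fewer miRNA counts. Grass-fed replicate 2 stands above the other grass-fed libraries for bta-miR-378c, and grain-fed replicate 1 is highest for bta-miR-378d.

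The 2 precursors of bta-miR-378 had nearly equal counts in every library. A read that fits both may be listed under each, which was not tested because single reads were not examined. Under grass, bta-mir-378-1 had 5415, 3427 and 3000 counts and bta-mir-378-2 had 5496, 3505 and 3042 counts. Under grain, bta-mir-378-1 had 600, 553 and 452 counts and bta-mir-378-2 had 595, 551 and 451 counts. These totals do not show which reads came from which precursor, so the count of bta-miR-378 was not divided between the PPARGC1B locus and the CALCR locus.

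The small difference between the 2 counts leaned to different precursors in the 2 groups. The net excess of bta-mir-378-2 over bta-mir-378-1 was 81, 78 and 42 counts under grass, or 1.47%, 2.23% and 1.38% of the larger count. Under grain the excess was on bta-mir-378-1, by 5, 2 and 1 counts, or 0.833%, 0.362% and 0.221%. The difference between the diets was 2.17 percentage points (exact permutation p = 0.1, two-sided, the smallest it can give), and leaving out any 1 library gave 1.90 to 2.32. It was noticed after the counts were seen and rests on 1 to 5 counts in each grain-fed library. Among the 18 miRNAs with 2 precursors and at least 100 counts in every library, the net difference did not overlap between the diets in 8, or 44.4%, bta-miR-378 included. bta-miR-378 was the only 1 of the 18 with opposite signs in the groups in all 6 libraries, and 4 of the others, such as bta-miR-194 and bta-miR-92a, had a larger difference between the diets.

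**Figure D4:**
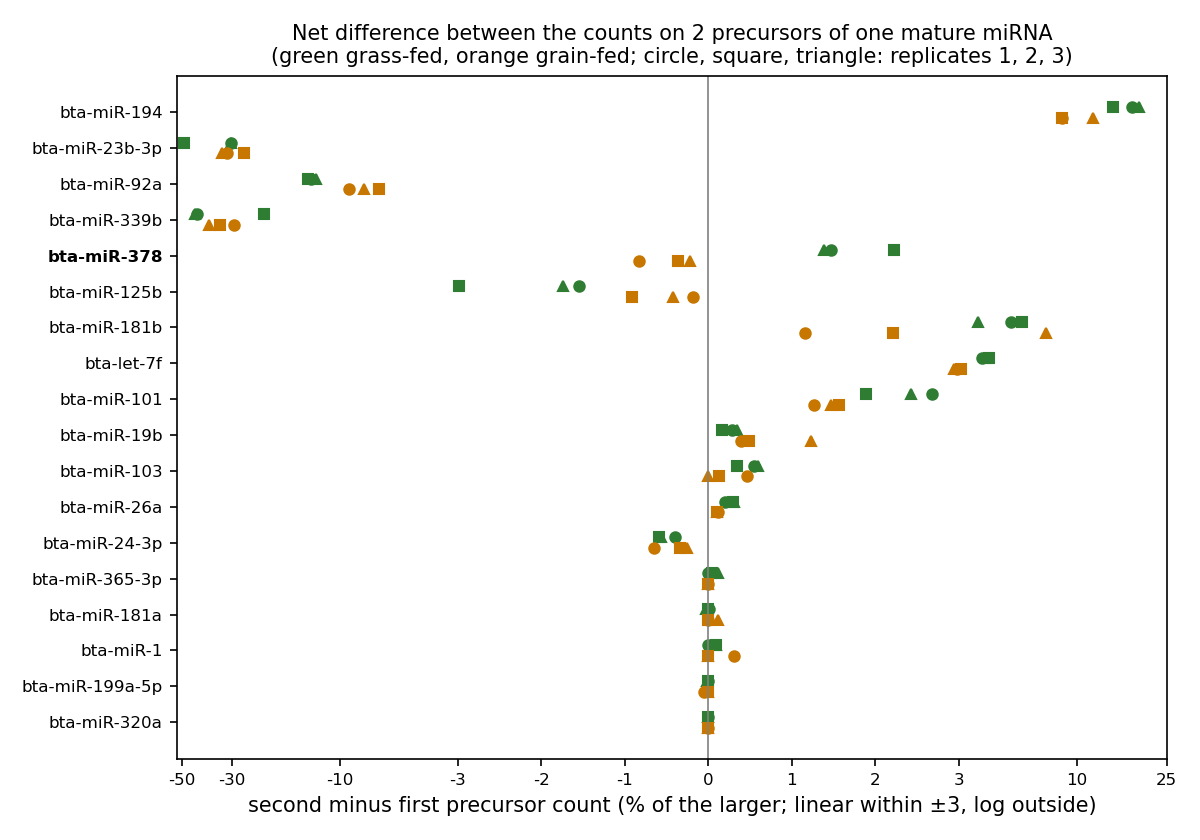
Net difference between the counts on the second and the first precursor, in % of the larger count (axis linear within ±3 and logarithmic outside), for the 18 mature miRNAs with 2 precursors and at least 100 counts in every library. Each point is 1 library, green for grass-fed and orange for grain-fed, and bta-miR-378 (bold) has its grass-fed points above 0 and its grain-fed points below 0.

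Other miRNAs tied to energy metabolism were read beside the family from a list of 29 miRNAs known from work on lipid, glucose and mitochondrial metabolism. Of these, 27 are listed in the files and 26 were tested. After TMM scaling 6 were higher and 1 was lower in grass-fed liver at FDR 0.1 (edgeR), or 26.9% of the list against 19.1% of all tested miRNAs, and 19 did not pass. Over all tested miRNAs 9.43% were higher and 9.65% lower. With total counts alone the number was also 7, of which 3 were higher and 4 lower, where 1.97% of all tested miRNAs were higher and 14.3% lower. After TMM the list had a median of 0.25 on the log2 scale, or 0.15 with bta-miR-33a, which had no grain-fed count, set to the value at the floor of 3 counts over the group, beside 0.13 for all tested miRNAs.

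The members of that list that rose were bta-miR-128, bta-miR-370, bta-miR-122, bta-miR-365-3p, bta-miR-30c and bta-miR-185. bta-miR-128, known for targeting the LDL receptor and the cholesterol exporter ABCA1, averaged 409 ± 153 CPM under grass and 116 ± 41.9 CPM under grain (SD, n = 3 each), a difference of 1.82 on the log2 scale (edgeR FDR = 0.00290). bta-miR-122, the main hepatocyte miRNA, differed by 1.12 on that scale (edgeR FDR = 0.00417). The value of bta-miR-185, which is known to act on SREBP2 and scavenger receptor BI, was 0.78 (edgeR FDR = 0.0407), and the call was lost with total counts alone, as it was for bta-miR-30c and bta-miR-365-3p. bta-miR-26b was the 1 member that fell, with a log2 value of -0.95 (edgeR FDR = 0.0234). bta-miR-370, bta-miR-185, bta-miR-30c and bta-miR-365-3p also lost the call when single libraries were left out, whereas bta-miR-128, bta-miR-122 and bta-miR-26b kept it without any 1 library.

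Like miR-378, bta-miR-33a, bta-miR-33b, bta-miR-103 and bta-miR-107 lie in introns of metabolic genes, SREBF2, SREBF1 and the pantothenate kinase genes, in the species where they have been studied. bta-miR-103 averaged 3079 ± 409 CPM under grass and 2076 ± 375 CPM under grain (SD, n = 3 each), 0.57 apart on the log2 scale (edgeR FDR = 0.103). bta-miR-107 averaged 563 ± 54.1 CPM under grass and 421 ± 21.1 CPM under grain (SD, n = 3 each), 0.42 apart (edgeR FDR = 0.212). For both, every grass-fed library was above every grain-fed library, while ranges were separate in either direction for 32.9% of all tested miRNAs. Neither passed FDR 0.1 after TMM with all 6 libraries. bta-miR-103 was called after TMM without grass-fed replicate 2 (edgeR FDR = 0.0440). It was not called without any other 1 library (edgeR FDR from 0.108 to 0.381). Under upper-quartile scaling both were called, at 0.78 for bta-miR-103 (edgeR FDR = 0.0332) and 0.60 for bta-miR-107 (edgeR FDR = 0.0434), while with total counts alone the log2 values were 0.18 and 0.00050. bta-miR-33a had 4, 4 and 3 counts in the grass-fed and 0 in each of the grain-fed libraries, and bta-miR-33b had 1 count in all, so no fold is given.

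**Figure D5:**
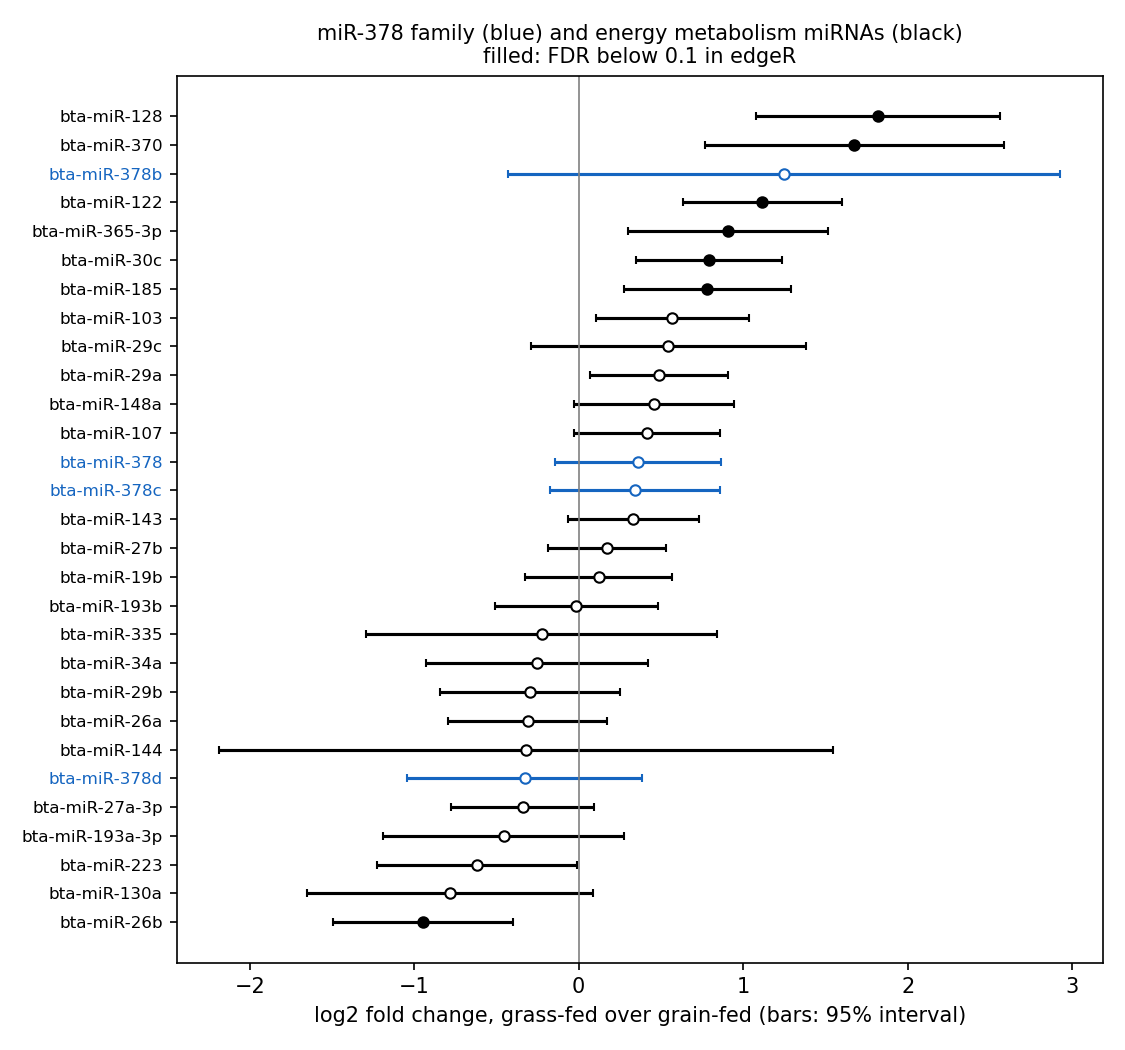
Log2 fold change, grass-fed over grain-fed after TMM scaling, of the 4 miR-378 family members (blue) and of the tested members of the energy metabolism list (black), with 95% intervals from the edgeR fit and filled points at FDR below 0.1. All 4 blue intervals include 0, and bta-miR-33a, which had no count in grain-fed liver, is left out.

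By Pearson's r across the 6 libraries, the level of bta-miR-378 was most like that of the arms of bta-miR-126 and of bta-miR-21-5p. Among 234 miRNAs with a mean of at least 10 counts in each group, Pearson's r of log2 CPM with bta-miR-378 was 0.94 for bta-miR-126-5p, 0.93 for bta-miR-21-5p and 0.88 for bta-miR-126-3p, with n = 6 libraries. After the mean of each diet was taken out, these values were 0.92, 0.96 and 0.94. bta-miR-126 is best known from endothelial cells and bta-miR-21-5p is abundant in many cell types. bta-miR-378c was 22nd of the 234 with r = 0.69, and bta-miR-378d was 173rd with r = -0.34. The order depended on the measure. Spearman's rank correlation was 0.94 for both bta-miR-378c and bta-miR-126-5p, 0.60 for both bta-miR-21-5p and bta-miR-126-3p, and -0.03 for bta-miR-378d. The lowest values were -0.85 for bta-miR-429 and bta-miR-31 and -0.88 for bta-miR-98. The miRNAs of a library share its depth and scaling factor, and these correlations over 6 libraries are a description only.

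Marker miRNAs of other cell types were read in the same libraries because miR-378 is also abundant in muscle. The hepatocyte marker bta-miR-122 was the most abundant miRNA. With bta-miR-192 and bta-miR-194 it summed to 364008 to 545859 CPM in grass-fed and 191657 to 253884 CPM in grain-fed liver, and 2 of the 3 were called higher in grass-fed liver. The third, bta-miR-194, was not called, at 9811 ± 2765 CPM under grass and 13210 ± 2980 CPM under grain (SD, n = 3 each), -0.43 on the log2 scale (edgeR FDR = 0.300). Of 7 muscle miRNAs, bta-miR-208a and bta-miR-208b had no count and bta-miR-206 had 0 to 3 counts a library. Of the 4 tested, 1, bta-miR-499, was higher in grass-fed liver (log2 fold change 1.54, edgeR FDR = 0.0862). It had only 7, 3 and 7 grain-fed counts, and its ranges overlapped, with grain-fed replicate 3 at 12.4 CPM and grass-fed replicate 3 at 11.5 CPM. The summed level of the 7 muscle miRNAs was 327 to 558 CPM in grass-fed and 202 to 364 CPM in grain-fed liver, most of it bta-miR-1. The 2 endothelial miRNAs summed to 11448 to 16151 and 9475 to 14334 CPM, the 5 leukocyte miRNAs to 743 to 993 and 943 to 1132 CPM and the 3 erythroid miRNAs to 419 to 643 and 465 to 665 CPM, with 0 of these called in edgeR. The 3 stellate cell miRNAs summed to 6142 to 8061 CPM in grass-fed and 4375 to 4941 CPM in grain-fed liver with 2 higher in grass-fed, and the 5 biliary miRNAs to 599 to 880 and 442 to 704 CPM with 1 higher and 1 lower. Beside these calls, 9.43% of all tested miRNAs were called higher and 9.65% lower in grass-fed liver. The part of any of these cell types in the levels of the miR-378 family was not tested.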

How the data were processed

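Per the labels, small RNA of 6 liver libraries was sequenced, 1 library per animal. Reads were trimmed of adapters and filtered on quality and length by the authors, who mapped them to ARS-UCD1.2 and quantified known miRBase miRNAs in miRDeep2. The submitters' processing notes name FastQC version 0.11.5 and Trimmomatic version 0.36. For miRDeep2, version and settings are not given in the sources used. The deposited read counts are raw whole numbers for each of 1207 pairs of mature miRNA and precursor. The CPM column deposited beside them, a count over the library total of all pairs, was not used.

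A mature miRNA with several precursors was given its largest count in each library, since reads that fit several precursors may be repeated. A miRNA was tested where 2 or more libraries had a count above 2. Libraries were scaled by TMM, and edgeR version 4.0.16 (R version 4.3.3) fitted its quasi-likelihood model with diet as the only term, with Benjamini-Hochberg adjustment over all 456 and FDR 0.1. CPM values are TMM-scaled, and 95% intervals use the standard error and degrees of freedom of that fit. Ratios within a library were compared by exact permutation of libraries. A count of 0 allows up to 0.632 to 0.787 CPM in grass-fed and 2.92 to 5.32 CPM in grain-fed libraries. DESeq2 version 1.42.0, other scalings and filters, a replicate block and each library left out were alternatives. The fit was tested on simulated counts with a log2 change of 2, up or down, in 200 of 456 miRNAs. Over 10 draws it found 82.0% of these changes, and 5.14% of its calls were false. Changes as small as those fitted for the family were not simulated. The labels do not say how animals were numbered.

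The members and lists were chosen with earlier results of these data known. Named miRNAs are the members, the called members of the energy metabolism list, bta-miR-33a, bta-miR-33b, bta-miR-103 and bta-miR-107, the neighbours of bta-miR-378 in mean CPM, the 3 miRNAs most and the 3 least like it across libraries, and cell type markers. bta-miR-499, bta-miR-194 and bta-miR-92a are also named and were chosen after their values were seen. Mature sequences of the members were not used here, so shared seeds and the identity of members were not computed.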

Additional observations from a re-analysis of the deposited data

How the results depend on the processing

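With total counts alone the log2 fold change turned to -0.034 for bta-miR-378 and to -0.088 for bta-miR-378c, and with upper-quartile scaling bta-miR-378c passed FDR 0.1 at 0.52, so that 1 of the 4 members was called, beside 124 of the 456 tested miRNAs (27.2%). Every other alternative called 0 members. With each library left out in turn, the log2 fold change lay between 0.10 and 0.43 for bta-miR-378, 0.64 and 2.29 for bta-miR-378b, 0.21 and 0.41 for bta-miR-378c, and -0.64 and -0.15 for bta-miR-378d. For bta-miR-378b these ends were without grain-fed replicates 2 and 1. The number of all tested miRNAs called, 87 after TMM, lay between 49, without grain-fed replicate 2, and 86 with 1 library left out, and between 70 and 124 under the other alternatives. Of the called miRNAs, 50.6% were lower in grass-fed liver after TMM, 87.8% with total counts alone, 33.9% after upper-quartile scaling and 69.1% with total counts without bta-miR-122, the last a setting chosen after seeing the data, as was the smallest count over precursors. With at least 10 counts in 3 libraries bta-miR-378b was not tested.

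No sign was seen that the replicate numbers pair the animals, although 3 libraries per group cannot exclude it. Deviations of same-numbered libraries from their group means correlated at -0.05, -0.20 and -0.01. The replicate block gave log2 fold changes of 0.35 for bta-miR-378, 1.31 for bta-miR-378b, 0.33 for bta-miR-378c and -0.30 for bta-miR-378d, 0 members were called, and 82 miRNAs were called in all. Depth limits bta-miR-378b most, with 4 counts over the 3 grain-fed libraries.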
